A study of Mus musculus with 10 samples.

Results

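The cytosolic ribosomal protein genes were taken from the pancreas counts by their symbols, as every Rpl or Rps symbol with a number plus Rplp0, Rplp1, Rplp2 and Rpsa, without pseudogene names and without the S6 kinases. The rule found 84 of 24062 genes and used no measured value. By symbol alone, 51 (Rpl) were assigned to the large and 33 (Rps) to the small subunit. Counts came from 10 pancreata of C57BL/6 mice at postnatal day 5, 5 WT and 5 KSR23 (genotype KSR23+), with 1 library per mouse. In KSR23 mice a K14-cre transgene removes a STOP signal ahead of an IL-23 cassette placed in ROSA26, so that IL-23 comes from cells that use the keratin 14 promoter, and the study compared the neonatal pancreas of such mice with that of WT mice. The RNA was that of the whole organ, so fewer cells of a type and less RNA per cell cannot be told apart.

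Ribosomal proteins assemble with ribosomal RNA into the small subunit, which reads the mRNA, and the large subunit, which joins amino acids. Most are made in equal numbers, and their mRNAs carry a terminal oligopyrimidine (TOP) tract, a C at the very start followed by a run of pyrimidines, through which mTORC1 and LARP1 set how well they are translated. The exocrine pancreas, whose acinar cells secrete digestive enzymes, is among the tissues richest in ribosomes. Counts of RNA measure the amount of these mRNAs and not their translation.

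The windows of 30 bases around the annotated transcription start are shown for 3 members with a long tract at the start, for the 4 members that differed between the groups, and for Rps27, the close relative of the first of these. RefSeq (GRCm38.p6) gives promoters for 63 of the 84 members. The 16th letter is the first transcribed base, the sequence runs 5′ to 3′ on the strand of the gene, and capitals mark the longest run of C and T inside the 10 bases on either side of the start. Where such a run goes on beyond these bases, the rest of it is left in lower case.
Rpl15, chr14:18270972-18271001 (-): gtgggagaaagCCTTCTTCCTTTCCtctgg
Rpl35, chr2:39005117-39005146 (-): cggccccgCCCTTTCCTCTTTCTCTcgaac
Rps6, chr4:86857353-86857382 (-): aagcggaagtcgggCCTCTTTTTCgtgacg
Rps27l, chr9:66946071-66946100 (+): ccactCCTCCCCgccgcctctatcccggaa
Rps27, chr3:90213634-90213663 (-): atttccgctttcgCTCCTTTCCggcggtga
Rpl23, chr11:97782425-97782454 (-): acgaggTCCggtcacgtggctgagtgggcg
Rpl5, chr5:107900513-107900542 (+): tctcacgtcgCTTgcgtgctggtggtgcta
Rps4x, chrX:102189377-102189406 (-): ctgaggctgggcggagcaaCCCaggctcca
From the first transcribed base on, Rpl15 had 13 pyrimidines in a row, Rpl35 had 11, Rps6 had 9 and Rps27 had 7. At the annotated starts of Rps27l (the upstream of its 2 starts is shown), Rpl23, Rpl5 and Rps4x the transcript began with no pyrimidine. These are single annotated positions, and transcription that starts a few bases away would give another first base.

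Ribosomal protein mRNAs differed little between the KSR23 and the WT pancreas. Of the 80 members that reached 5 counts or more in each of the 10 libraries, 0 were called higher, 4 were called lower and 76 were not called (edgeR's quasi-likelihood test, Benjamini-Hochberg adjusted p under 0.05), or 5.00% called where 31.0% of all 13882 tested genes were called (16.2% higher, 14.8% lower). At an unadjusted p under 0.05 there were 7 members, of which Rps7 alone was above WT. edgeR's likelihood ratio test and DESeq2 also called 0 members higher. The 4 members called lower were Rps27l, Rpl23, Rpl5 and Rps4x, 2 of each subunit. The median log2 FC (KSR23 minus WT) was -0.01 over the members and -0.01 over all tested genes, with 39 members above 0 and 41 below. It was -0.01 over the 47 tested members assigned by symbol to the large subunit and 0.00 over the 33 assigned to the small subunit.

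The precision was enough to bound the differences of nearly all members. The 95% interval of the log2 FC lay within 0.5 of 0, a fold of 1.41, for 76 of the 80 members, against 49.8% of all tested genes. A log2 FC within 0.25 of 0, a fold of 1.19, was seen for 96.2% of the members and 55.6% of all genes. The values ran from -0.42 for Rps27l to 0.37 for Rpl30, whose interval went from -0.12 to 0.85. The calls changed with the scaling of the libraries. With library size alone in place of TMM, 7 members were called higher and 1 lower, and the median of all genes moved to 0.09. With each library's trend over GC content and length taken out, 6 were called higher and 3 lower.

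**Figure D1:**
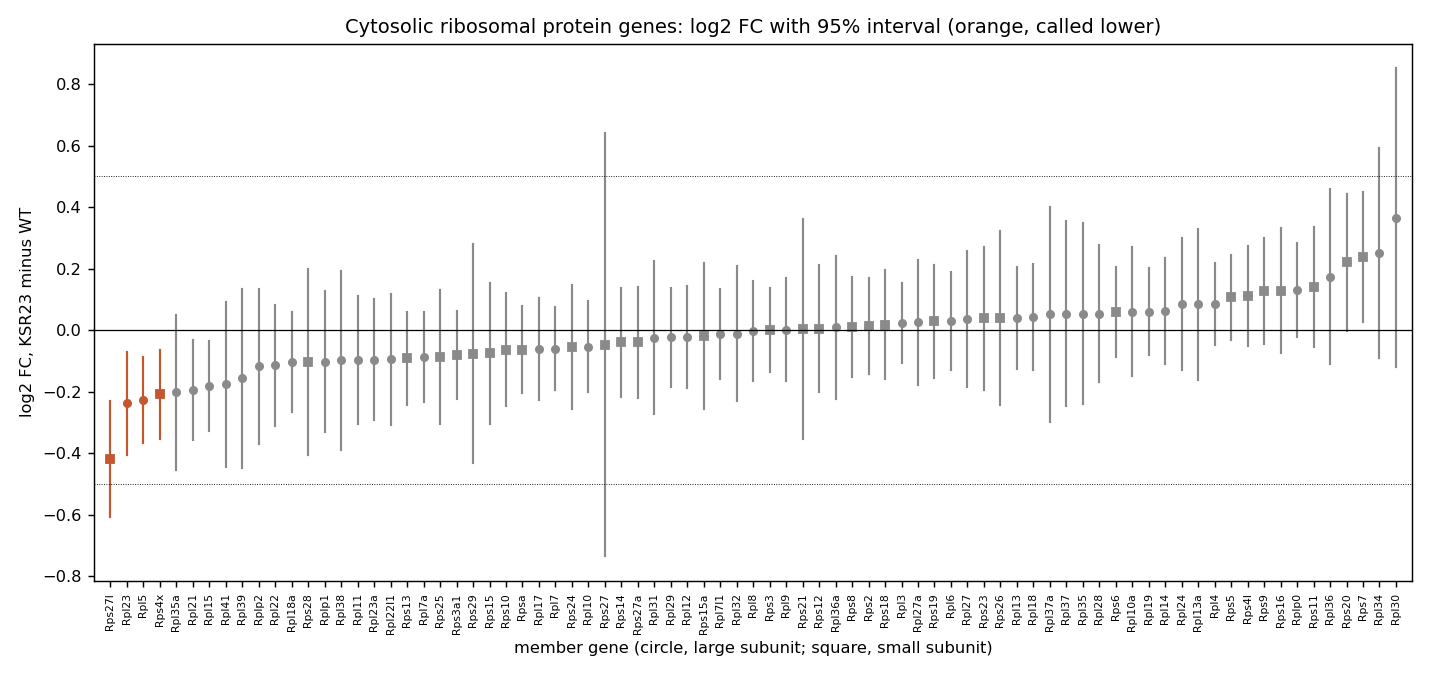
The plot shows the log2 FC of 79 of the 80 tested members (KSR23 minus WT, vertical axis) with its 95% interval, sorted from lowest to highest, with circles for the large and squares for the small subunit. The 4 orange members were called lower, dotted lines mark 0.5 on either side of 0, and Rps27l, Rps27, Rpl34 and Rpl30 have intervals that cross a dotted line.

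The lowest member was Rps27l, at chr9:66946086-66949516 on the plus strand (GRCm38), a paralog of Rps27 that is known as a target of p53. Its level was 264, 196, 220, 293 and 228 CPM in WT 1 to 5 and 171, 187, 171, 175 and 193 CPM in KSR23 1 to 5. The lowest WT library lay just above the highest KSR23 library, so the groups did not overlap, as was the case for 2 of the 80 members (Rps27l and, by a margin under the third digit, Rpl5; 2.50%) and for 19.4% of all tested genes. The mean fell from 240 ± 38.3 to 180 ± 9.98 CPM (SD, n = 5), which was 74.7% of WT (log2 FC -0.42, SE 0.09, adjusted p = 0.00172). The two-sided exact permutation test gave p = 0.00794, the smallest it can give with 5 mice in each group. The call was lost only when the log2 FC was tested against 0.5.

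Rpl5, at chr5:107900502-107909005 on the plus strand, binds the 5S RNA together with Rpl11, and the pair is known to hold back MDM2 when ribosome assembly is disturbed. Its level was 68.8, 69.7, 71.6, 70.3 and 62.4 CPM in WT 1 to 5 and 53.7, 61.5, 55.4, 59.8 and 62.4 CPM in KSR23 1 to 5. WT 5 and KSR23 5 were level to the third digit, and all other WT libraries lay above all KSR23 libraries. The log2 FC was -0.23 (SE 0.07, adjusted p = 0.0155), or 85.4% of WT. The call was lost with library size alone, with the GC and length trend taken out and against 0.5. Its partner Rpl11 was 57.8 ± 8.38 CPM in WT and 54.1 ± 6.24 CPM in KSR23 (n = 5) and was not called, with an interval from -0.31 to 0.11 that holds the value of Rpl5. The difference between both log2 FCs was not tested.

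Rpl23, at chr11:97777527-97782437 on the minus strand, lies in the large subunit on the face that meets the small subunit. It was at 65.7, 56.4, 60.9, 74.8 and 57.1 CPM in WT 1 to 5 and at 54.2, 48.9, 52.4, 57.7 and 53.7 CPM in KSR23 1 to 5. The groups overlapped at 2 WT libraries and KSR23 4. The log2 FC was -0.24 (SE 0.08, adjusted p = 0.0310), or 84.8% of WT, and the call was lost in 6 of 20 alternatives: without WT 1, WT 4 or KSR23 2, with library size alone, with the GC and length trend taken out and against 0.5.

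Rps4x, at chrX:102184941-102189394 on the minus strand, is an X-linked protein of the small subunit. It was at 129, 116, 121, 128 and 111 CPM in WT 1 to 5 and at 93.2, 113, 102, 110 and 106 CPM in KSR23 1 to 5. WT 5 lay below KSR23 2, and the other WT libraries were above all KSR23 libraries. The log2 FC was -0.21 (SE 0.07, adjusted p = 0.0282), or 86.5% of WT. It was lost in 8 of 20 alternatives, which were the removal of WT 1, WT 3, WT 4, KSR23 1 or KSR23 3, library size alone, the replicate block and the test against 0.5. The other 3 X-linked members, Rpl10, Rpl36a and Rpl39, were not called.

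**Figure D2:**
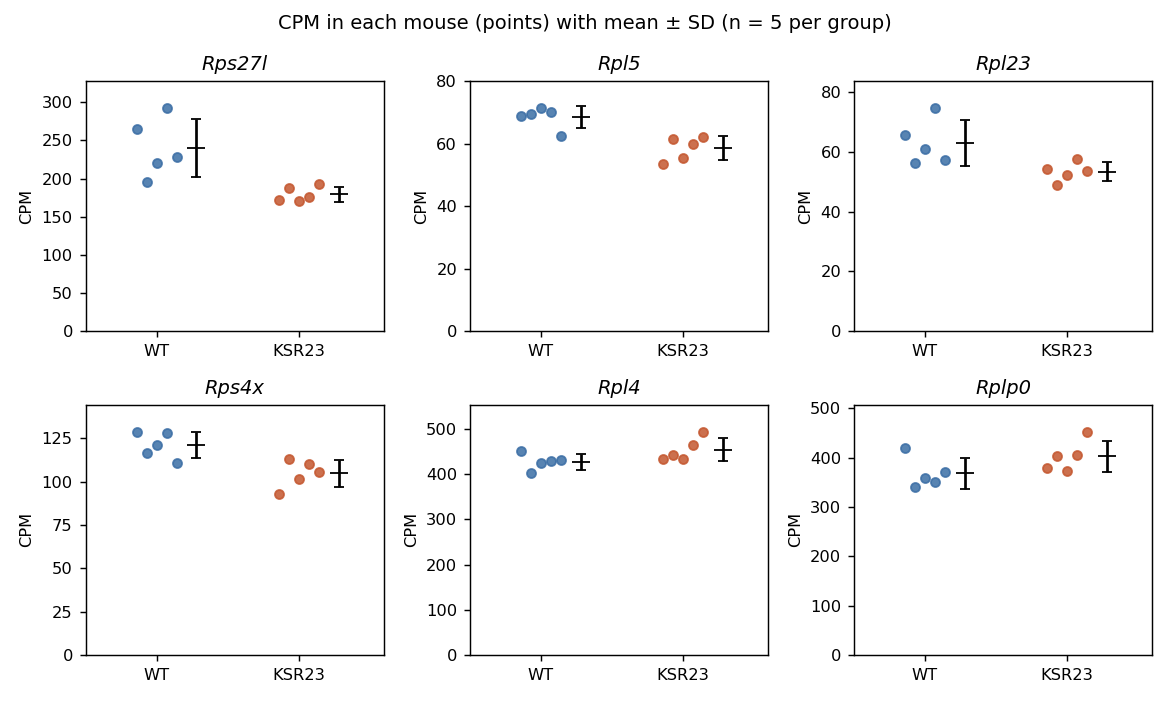
CPM in each mouse for the 4 members called lower and for Rpl4 and Rplp0, the members of highest mean CPM, with points for mice and bars for the mean ± SD (n = 5 per group). The KSR23 points of Rps27l, from 171 to 193 CPM, sit below all WT points, while those of Rpl4 and Rplp0 overlap with WT.

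The members that took the most counts did not pass the test. Rpl4, at the wall of the exit tunnel, was at 452, 403, 424, 430 and 431 CPM in WT 1 to 5 and at 435, 443, 434, 465 and 495 CPM in KSR23 1 to 5. Rplp0, the scaffold of the P stalk that recruits elongation factors, was at 421, 340, 360, 350 and 371 CPM in WT and at 380, 403, 372, 405 and 453 CPM in KSR23. Rps14, at the platform of the small subunit, was at 315, 220, 257, 296 and 275 CPM in WT and at 250, 252, 255.6, 294 and 275 CPM in KSR23. All 3 overlapped between the groups, with log2 FCs of 0.09, 0.13 and -0.04. Per kilobase of coding sequence, Rplp0 stood at 405 CPM, Rpl4 at 351 CPM and Rps14 at 594 CPM.

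The members were also read by the sites of the ribosome they belong to. Of the pair that binds the 5S RNA, Rpl5 was called and Rpl11 was not, as given above. Of the 4 proteins of the P stalk and its base, 0 were called, with log2 FCs of 0.13 for Rplp0, -0.10 for Rplp1, -0.12 for Rplp2 and -0.02 for Rpl12. Rplp1, for instance, was at 123, 72.1, 80.3, 93.5 and 100 CPM in WT and at 78.4, 86.2, 84.8, 94.0 and 93.4 CPM in KSR23, so that the KSR23 libraries lay inside the WT range. Of the 7 tested proteins around the exit of the peptide tunnel (Rpl17, Rpl19, Rpl22, Rpl23a, Rpl31, Rpl35 and Rpl39), 0 were called and the log2 FCs ran from -0.16 to 0.06. Of the 7 proteins along the mRNA channel (Rps2, Rps3, Rps9, Rps14, Rps26, Rps28 and Rpsa), 0 were called, between -0.10 for Rps28 and 0.13 for Rps9. Among 6 members known for other roles, 0 were called. Rps6, the phosphorylated target of the S6 kinases, was at 0.06, and Rps19, the gene most often mutated in Diamond-Blackfan anaemia, was at 0.03. Rps24, also mutated in that disease, was at -0.06. Rps27a, made as a fusion with ubiquitin, was at -0.04, and Rpl13a, part of an interferon-dependent translational silencing complex, was at 0.08.

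Subunit proteins whose symbols the rule left out were read beside the members. Rpl36al, a paralog of Rpl36a, fell from 48.0 ± 6.02 to 40.7 ± 3.03 CPM (log2 FC -0.24, adjusted p = 0.0425). The call was lost in 9 of 20 alternatives, among them the removal of WT 1, WT 4, KSR23 1, KSR23 2 or KSR23 4. Fau, made as a fusion with a ubiquitin-like protein, was at 0.10, and Gnb2l1, the older symbol of the scaffold protein Rack1, was at 0.13. Neither Fau nor Gnb2l1 was called by edgeR's quasi-likelihood test.

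Paralogs were then set against the gene they resemble, as the difference of their log2 CPM within a library, in which a prior count of 2 was added. Rpl7l1 to Rpl7 was -0.86 ± 0.12 in WT and -0.82 ± 0.17 in KSR23 (exact permutation p = 0.667, adjusted over 4 pairs 0.690). Rpl22l1 to Rpl22 was 0.09 ± 0.13 in WT and 0.12 ± 0.09 in KSR23 (exact permutation p = 0.690, adjusted 0.690). In both pairs the groups overlapped.

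The ratio of Rps27l to Rps27 was 8.68 ± 0.33 in WT and 8.29 ± 0.52 in KSR23 (exact permutation p = 0.190, adjusted 0.381), and it rests on Rps27 counts of 0.343 to 0.677 CPM in WT and 0.323 to 0.894 CPM in KSR23. For Rps4l to Rps4x the ratio was -1.92 ± 0.12 in WT and -1.60 ± 0.16 in KSR23, a difference of 0.32 (exact permutation p = 0.0238, adjusted 0.0952), and the groups overlapped. Without KSR23 4 the difference was 0.38 and the adjusted p of the exact test was 0.0317. On leaving out any other library, the adjusted p of the exact test was 0.0952 to 0.159. With the replicate block it was 0.25. Rps4l is annotated in GENCODE as a transcribed processed pseudogene, and its level was 31.9 ± 2.50 CPM in WT and 34.5 ± 2.45 CPM in KSR23.

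The other 3 paralogs were almost silent. Rpl10l, a testis paralog of Rpl10, had 0 counts in all 10 libraries. This allows a level of up to 0.0519 to 0.179 CPM per library (3 counts over the unscaled library size). Rpl39l, a testis paralog of Rpl39, had 1 count in WT 4, 3 in KSR23 1, 4 in KSR23 4 and 5 in KSR23 5. Rpl3l, the paralog of Rpl3 in skeletal muscle and heart, had 5, 7, 11, 2 and 4 counts in WT 1 to 5 and 23, 12, 6, 23 and 23 counts in KSR23 1 to 5. Without the filter on low counts its log2 FC was 1.15 (SE 0.49, adjusted p = 0.0970), which did not pass. The remaining member under the filter, Rpl26, is a core protein of the large subunit, and it had 3 counts in WT 3 and 0 elsewhere.

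Several core proteins besides Rpl26 were counted far below their neighbours. Rps27 was at 0.534 ± 0.15 CPM in WT, Rpl30 at 1.28 ± 0.28 CPM and Rpl34 at 3.29 ± 0.62 CPM (SD, n = 5). Per kilobase of coding sequence over all libraries, Rps27 stood at 2.13 CPM, Rpl30 at 4.26 CPM and Rpl34 at 10.2 CPM. These genes have processed pseudogenes, copies of the mRNA pasted back into the genome, and the deposited counts hold only reads that aligned in a single place. In GENCODE M21 transcripts, 79 of the 84 members shared at least 1 exact stretch of 75 bases, the read length, with a processed pseudogene. In 26 members no stretch of 75 coding bases was unique to the gene, among them Rps27 and Rpl5. In Rpl30, Rpl34 and Rpl26 the unique share of the coding sequence was 27.7%, 39.4% and 28.8%, and the cause of their low counts was not tested.

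The level of members was then read against this uniqueness. The median level was 110 CPM per coding kilobase in the 26 members with no unique coding window, 150 in the 25 members with up to 25%, 160 in the 19 with up to 75% and 185 in the 13 above that. Over the 83 members with a coding sequence, the share of unique windows and the log2 level per coding kilobase had a Pearson r of -0.20 and a Spearman rho of 0.21, of opposite sign. The 4 calls were spread as 1, 1, 2 and 0 over these classes. The counts of Rpl5, with 7.51% of its transcript windows unique, and of Rps27, with 1.48%, may be affected by shared windows, which was not tested. Of transcript windows, 88.0% were unique in Rps27l, 72.2% in Rpl23 and 47.1% in Rps4x. Of coding windows, the shares were lower, at 73.0% in Rps27l, 21.7% in Rpl23 and 33.3% in Rps4x. Alignments in more than 1 place differed between the groups, at 1.16 ± 0.08 per gene count in WT and 0.715 ± 0.05 in KSR23 (n = 5), and their part in the members' counts was not tested. The median log2 FC of the 26 members with no unique window was -0.03.

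**Figure D3:**
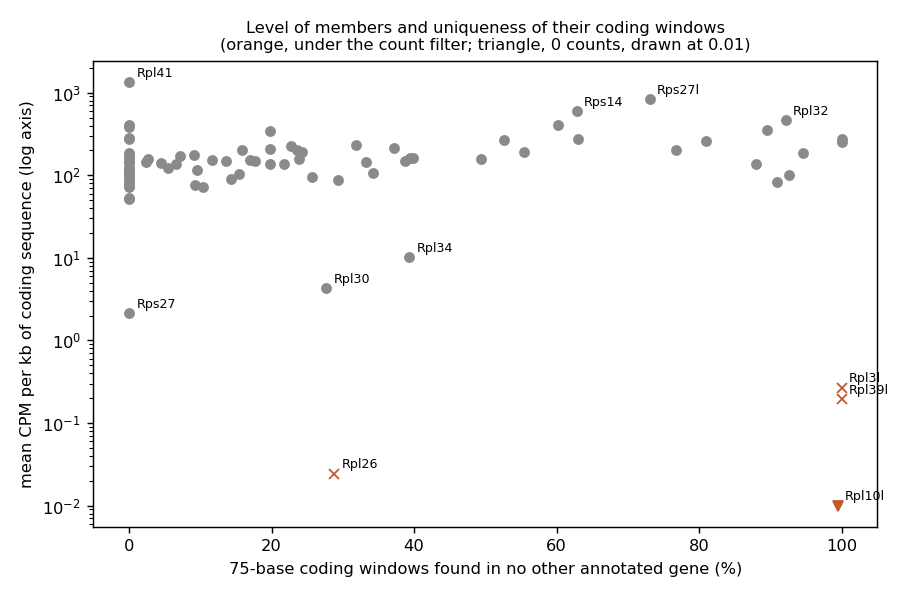
Each point is a member with a coding sequence, placed by the share of its 75-base coding windows found in no other annotated gene (horizontal, percent) and by its mean CPM per kilobase of coding sequence over 10 libraries (vertical, log axis). Most members lie between 50 and 500 CPM per kilobase at every share, and Rps27, Rpl30, Rpl34, Rpl26 and the paralogs Rpl3l, Rpl39l and Rpl10l lie far below the rest.

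As a group, the members took 0.790%, 0.621%, 0.657%, 0.736% and 0.726% of all gene counts in WT 1 to 5 and 0.735%, 0.700%, 0.754%, 0.811% and 0.740% in KSR23 1 to 5. The groups overlapped, at 0.706 ± 0.0673% and 0.748 ± 0.0405%. The difference of 0.0421 percentage points turned to -0.0284 when the 50 genes of highest mean count, which took 66.2% of WT and 63.7% of KSR23 counts, were left out of the total. Summed CPM of the members was 7303 ± 822 in WT and 7247 ± 468 in KSR23.

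The WT libraries differed among themselves more than the group medians did, most of all in the short mRNAs. The SD of the members' median deviation from their mean over 10 libraries was 0.19 in WT and 0.09 in KSR23 (log2 CPM). Rps29 was at 86.9, 44.8, 47.8, 98.1 and 72.7 CPM in WT and at 63.0, 54.1, 64.8, 79.3 and 70.9 CPM in KSR23, a WT coefficient of variation of 33.6%. Rps21 was alike, from 20.2 CPM in WT 2 to 45.8 CPM in WT 1. In both, WT 1 and WT 4 were high and WT 2 and WT 3 low. Across the 79 tested members with a coding sequence, coding length and WT coefficient of variation had a Spearman rho of -0.89 and a Pearson r of -0.82; these genes share the same 5 libraries and are not independent.

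Of the 37 members with a coding sequence under 450 bases, 35 lay above their own mean in WT 1 and in WT 4, and 0 did so in WT 2. Their median deviation was 0.26 in WT 1, -0.39 in WT 2, -0.19 in WT 3, 0.30 in WT 4 and 0.05 in WT 5. In the 42 longer members it ran from -0.18 to 0.19. The 295 tested non-members with a transcript under 700 bases had a median deviation of 0.22, -0.14, -0.01, 0.20 and 0.04 in WT 1 to 5, of the same sign as the short members in each. In KSR23 1 to 5 it was -0.13, -0.11, -0.02, -0.01 and -0.08, where the short members were at -0.08, -0.14, -0.03, 0.17 and 0.08, so the signs differed in KSR23 4 and KSR23 5. Averaged over libraries, the short non-members were at 0.06 in WT and -0.07 in KSR23, and the short members at 0.01 and 0.00. The median WT coefficient of variation of the short non-members was 17.3%, against 12.0% in the 13435 longer non-members, 19.7% in short members and 10.1% in longer members. In KSR23 it was 10.5% in short and 7.16% in longer members. Among non-members in KSR23 the short genes did not vary more, at 12.0% against 12.8% in the longer genes. The cause of this spread was not tested. Leaving out WT 2 moved the members' median log2 FC to -0.07 and leaving out WT 1 moved it to 0.05, the extremes over the 10 libraries.

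**Figure D4:**
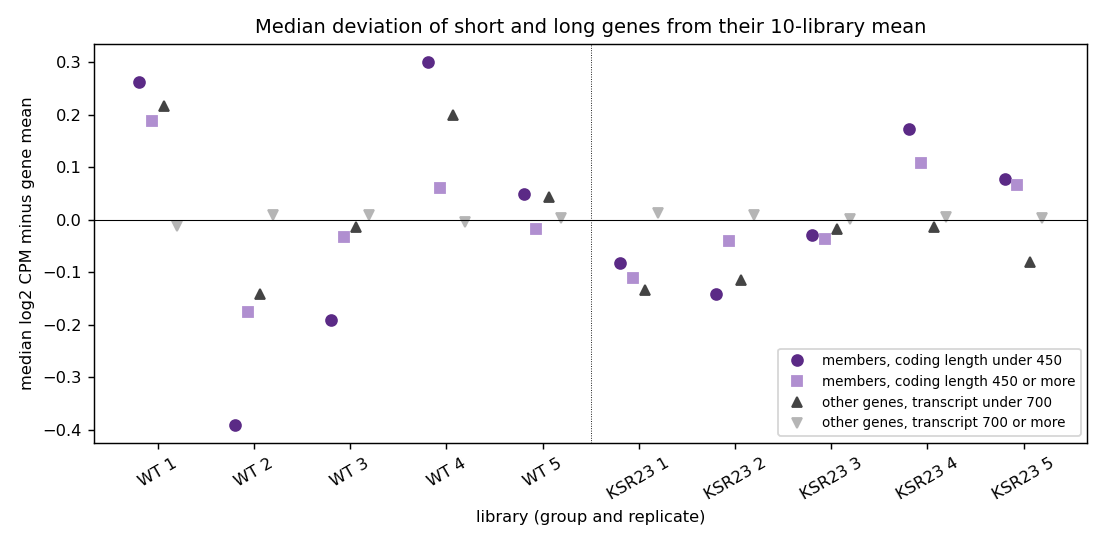
For each library (horizontal), the median log2 CPM minus the gene's mean over 10 libraries (vertical) is given for short and longer members and for short and longer other genes. The short members spread from -0.39 in WT 2 to 0.30 in WT 4, the longer other genes stay near 0, and the KSR23 libraries spread less.

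The start sequences were read beside the differences. A C at the annotated start followed by at least 4 pyrimidines was found in 13 of 63 members (20.6%), against 3.01% of 27018 genes in the RefSeq table and 2.98% of tested genes. At least 8 pyrimidines in a row inside the 10 bases on either side of the start were found in 33.3% of the members and 8.71% of all genes. None of the 13 members with the start tract was called, with a median log2 FC of -0.02, and 4 of 46 without it were called, with a median of 0.00. Of all tested members 5.00% were called, and of all tested genes 31.0%. A link between the tract and the calls was not tested. The letters CCGGAAG, a core that ETS factors are known to bind, stood on either strand of the 250 bases before the start in 30.2% of the members, 7.83% of all genes and 14.6% of tested genes. The share was 28.6% of ribosome biogenesis genes and 17 of 68 mitochondrial ribosomal protein genes. AAGATGG, the core of the YY1 motif, was in 7.94% of members, 5.19% of all genes and 4.97% of tested genes. GGGCGG, the core of an SP1 site, was in 50.8% of members, 35.4% of all genes and 63.5% of tested genes. The letters TATAAA were in 6.35% of members and 14.3% of all genes, but in 4 of 59 tested members and 835 of 10439 tested genes, which is a like share.

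Among the genes that build the ribosome, more rose than among its proteins. Of 50 tested ribosome biogenesis genes, 19 rose, 0 fell and 31 were not called, with a median log2 FC of 0.18 and 47 above 0. Among all tested genes, 16.2% were called higher. Rrp12, needed to export and mature both subunits, rose from 6.18 ± 0.58 to 9.95 ± 1.79 CPM (n = 5, log2 FC 0.69, adjusted p = 0.000538). Nip7, which acts in the processing of ribosomal RNA, rose from 15.9 ± 1.74 to 24.4 ± 0.92 CPM (log2 FC 0.62, adjusted p = 2.55e-05). Rrp1b and Nop2, nucleolar factors of the large subunit, rose by 0.58 and 0.48. Without KSR23 5, 12 of the 50 were called. Of the 14 genes of the RNA polymerase I machinery, which transcribes ribosomal RNA, 2 rose and 0 fell (median 0.06), Polr1b by 0.32 and its factor Ubtf by 0.23, a share below the 31.0% of all genes. Of 20 alternatives, 9 lost the call of Polr1b, among them the removal of WT 1, WT 4, WT 5, KSR23 1, KSR23 4 or KSR23 5. Ubtf was lost in 7, among them the removal of WT 2, WT 3, WT 4 or KSR23 4, and its log2 FC was 0.08 in the lowest. None of the 42 biogenesis genes in the promoter table had the start tract.

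Genes named for proteins of the mitochondrial ribosome, a separate particle that translates mitochondrial mRNAs, had calls in both directions. They were taken by symbol, as Mrpl or Mrps with a number, and whether each product belongs to the particle was not checked. Of the 77 tested, 3 rose, 18 fell and 56 were not called, with a median log2 FC of -0.10. The share called, 27.3%, was near the 31.0% of all tested genes. Mrps36 fell from 3.23 ± 0.59 to 1.88 ± 0.23 CPM (log2 FC -0.79, adjusted p = 0.00354) and Mrpl42 fell from 51.9 ± 4.26 to 39.3 ± 0.92 CPM (log2 FC -0.40, adjusted p = 0.000260). Mrpl28 and Mrps22 fell by 0.38 and 0.37 on the log2 scale. The call of Mrps22 was lost with library size alone, without WT 3 and against 0.5. With library size alone 5 rose and 4 fell, and the median was -0.01. The count of falls was 11 with the replicate number as a block, 10 without WT 1 or WT 4 and 11 without KSR23 1. Summed over the list, the level was 2028 ± 128 CPM in WT and 1876 ± 66.5 CPM in KSR23.

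Translation factors had calls in both directions. Of 35 initiation factors, 5 rose, 4 fell and 26 were not called (median 0.05), which is 25.7% called beside the 31.0% of all genes. With library size alone, 13 rose and 1 fell. Eif6, which keeps the large subunit from joining too early, rose from 50.3 ± 4.33 to 69.0 ± 3.07 CPM (log2 FC 0.46, adjusted p = 7.86e-05). Eif1a and Eif3b rose by 0.34 and 0.32, and Eif3a, another subunit of the same eIF3 complex as Eif3b, fell by 0.28 on the log2 scale. Of 11 elongation and termination factors 2 rose, which is 18.2% beside the 31.0% of all genes. Eef2 rose from 282 ± 20.0 to 346 ± 36.3 CPM (log2 FC 0.30) and Eef1a1 from 594 ± 21.1 to 683 ± 49.99 CPM (log2 FC 0.20). Both also belong to the 16 tested TOP genes that are not ribosomal proteins, of which the other 14 were not called (median 0.01). Eef1a1 lost its call without WT 2, WT 4, WT 5, KSR23 2 or KSR23 4, which left 1 of the 11 called. The calls of Eef2 and Eif3b were lost with the GC and length trend taken out and against 0.5. Their log2 FCs were 0.11 and 0.14 in the lowest setting.

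Regulators of mTORC1, MYC and TOP translation gave 3 rises and 6 falls among 25 tested genes (median -0.12), so that 9 of 25 were called beside the 31.0% of all genes. Max, the partner of MYC, fell by 0.67 on the log2 scale (adjusted p = 0.0104), and Ddit4, a stress-induced inhibitor of mTORC1, rose by 0.64 (adjusted p = 6.94e-05). Sesn3 and Sesn1, of the sestrins that hold back mTORC1, fell by 0.55 and 0.50 on the log2 scale. The call of Sesn3 was lost in 8 of 20 alternatives, among them the removal of WT 2, WT 4, KSR23 4 or KSR23 5. Larp1, which binds the TOP tract, was among the rises (log2 FC 0.26, adjusted p = 0.0299), and Myc itself was not called (log2 FC 0.01, interval -0.21 to 0.24); both were named after their values were seen.

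**Figure D5:**
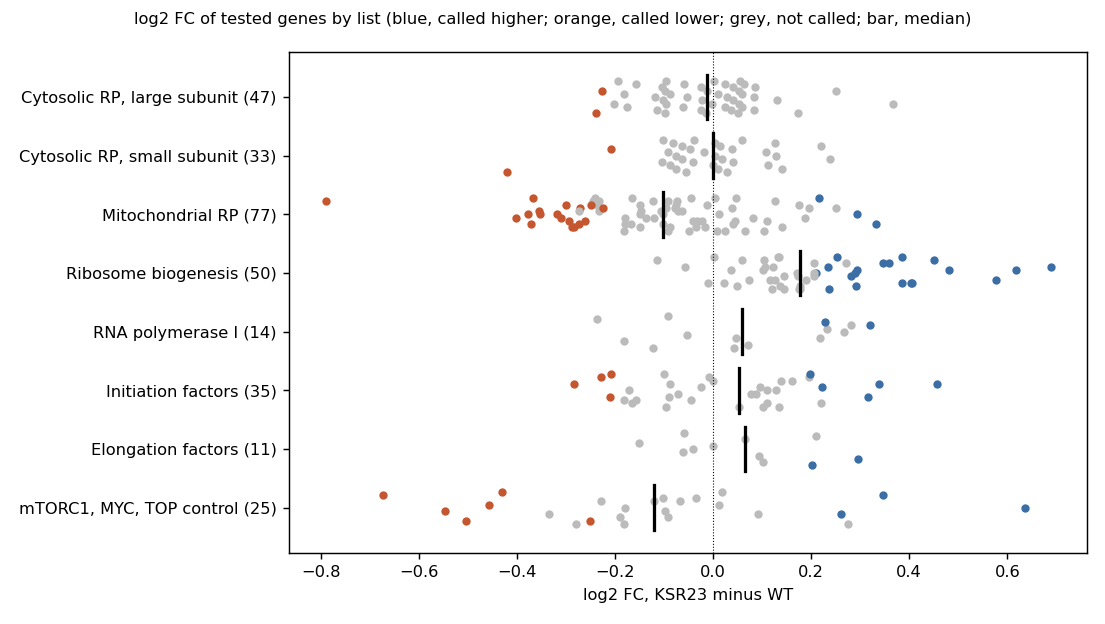
Each point is a tested gene, placed by log2 FC (KSR23 minus WT, horizontal) in its list, with the number of tested genes in parentheses, blue for called higher, orange for called lower, grey for not called and a bar for the median. The cytosolic proteins centre on 0 with 4 orange points, while biogenesis genes lie mostly to the right (median 0.18) and mitochondrial proteins mostly to the left with TMM scaling (median -0.10, and -0.01 with library size alone).

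Acinar markers were abundant in every library, and the markers of several cell types moved with the genotype. Of all tested genes, 16.2% were called higher and 14.8% lower. Of 10 acinar markers 8 fell, and their summed level was 228829 to 247551 CPM in WT and 130510 to 165507 CPM in KSR23. Of 10 duct markers 9 rose (1745 to 1890 CPM in WT, 2818 to 3109 CPM in KSR23), of 10 islet markers 7 fell and 1 rose (8122 to 11378 CPM and 5004 to 6307 CPM), and of 10 myeloid markers 8 rose and 0 fell (232 to 306 CPM and 285 to 666 CPM). Of 7 proliferation markers 5 fell (296 to 317 CPM and 195 to 327 CPM). Of the tested markers of other cells, 1 of 5 lymphoid genes fell, 0 of 4 erythroid genes were called, 1 of 8 stromal genes rose and 1 fell, and 3 of 6 endothelial genes rose and 2 fell. Their part in the results for the ribosomal protein genes was not tested. Counts on genes ran from 26830235 to 33189132 in WT and from 16715976 to 57784136 in KSR23.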

How the data were processed

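Total RNA of whole pancreas was copied by the authors with oligo-dT priming (SMART-Seq v4) and sequenced as single-end reads of 75 bases. Per the submitters' processing notes and the paper's methods, TopHat2 2.1.0 placed reads on mm10 and HTSeq 0.6.1p1 counted those with a single alignment, and the authors deposited these counts without normalization. The annotation and strand setting are not given in the sources used here. No molecular identifiers were used, so floors of 3 counts cover counting error only.

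The filter required 5 or more counts of a gene in each library. Counts were scaled by TMM and compared with edgeR 4.0.16 (quasi-likelihood F test, Benjamini-Hochberg over all tested genes, R 4.3.3). CPM uses the scaled library sizes. Standard errors are the log2 FC over the root of F, and 95% intervals use the test's degrees of freedom. Permutation tests were two-sided and exact over the 252 ways to divide the mice. The fit was tested on simulated data. Length, GC content and unique windows of 75 bases (both strands, exact matches) come from GENCODE M21 transcripts on GRCm38, the assembly of mm10. Promoters come from RefSeq and span 250 bases before to 50 after the start.

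Members and lists were chosen with earlier results of these data known. Named were members called, paralogs and their partners, members of the role lists, the 3 of highest mean CPM, those under the filter, and up to 4 called genes of each other list with the largest log2 FC in size, except the cell marker lists, given as counts. The values of 2 genes under this rule are not reported here. Alternatives were edgeR's likelihood ratio test, DESeq2 1.42.0, RLE factors, no scaling factor, a total that leaves out the 50 highest genes, looser filters, a test against 0.5, a replicate block, a GC and length trend (loess), and each library left out. Labels number replicates 1 to 5 in each group, and p-values measure the spread between these samples.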

Additional observations from a re-analysis of the deposited data

Results flagged for a closer look

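The CPM values of the 80 tested members, the share of counts on members and the 4 paralog ratios were searched in each group of 5 for a value far from the other 4 (Dixon's gap over range above 0.71). Chance flags about 1 in 20 groups, or 8.5 of the 170 groups searched, and 3 were found, all in KSR23 4. Rpl10 was at 194 CPM there and at 166 to 174 CPM in the other KSR23 mice. Rps15a was at 50.5 CPM, against 37.8 to 41.3 CPM. Rps28 was at 34.8 CPM, against 25.1 to 27.6 CPM. In KSR23 4, 32 of 37 short and 37 of 42 longer members lay above their own mean over the 10 libraries. None of the 3 genes was called.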

How the results depend on the processing

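No call changed direction. Members called higher were 7 with library size alone (lower 1), 6 after removal of the GC and length trend and 1 with the replicate block (Rps7), against 0 in the main comparison; members called lower were 0 when tested against 0.5. Leaving out each library in turn gave 0 to 1 higher (Rps7, without WT 1) and 2 to 6 lower (2 without WT 1 or WT 4, 6 without WT 2). Of all genes, 700 were called against 0.5 (higher 437 and lower 263), and 1164 were called lower with library size alone, where 72.5% of calls were higher, against 52.3% with TMM. Mitochondrial proteins called higher were 5 with library size alone, 0 against 0.5 and 5 after the trend was removed (2 to 3 on leaving out libraries), and called lower 4, 0 against 0.5, 11 with the block and 10 to 19 on leaving out libraries. Biogenesis genes called higher were 31 with library size alone, 0 against 0.5 and 12 to 22 on leaving out libraries. The difference in the share of counts was -0.0284 percentage points without the 50 highest genes. The difference between the groups in the log2 ratio of Rps4l to Rps4x was 0.28 to 0.38 on leaving out libraries. The cause of these changes was not tested. Same-numbered libraries did not deviate together (correlations -0.11 to 0.066, best match for 1 of 10). This cannot exclude that same-numbered mice shared a litter or a batch, and the labels do not say. Rpl26, Rpl39l, Rpl3l and Rpl10l had too few counts to pass the filter, and few counts lie behind Rps27 and Rpl30.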
